A study of Mus musculus with 9 samples.

Results

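BRG1-only regions are stretches of the mouse genome at which ChIC-Seq gave a BRG1 peak in all 3 replicate libraries and no PBRM1 peak in any of 3. They were found by merging every autosomal peak of the 6 replicate lists that shared at least 1 bp with another, and then keeping the merged regions with a peak in each BRG1 list and in none of the PBRM1 lists. Of 81587 merged regions, 734 met this rule, which is 0.9% of all regions. The reverse rule, a peak in all 3 PBRM1 lists and no BRG1 list, gave 1000 PBRM1-only regions, or 1.23%. A further 12655 regions had a peak in all 6 lists and are called shared regions here. Because the 734 regions were chosen by the presence and absence of peaks, the peak heights at them are a description of the choice and carry no test.

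The cells were WT primary oviductal muscle cells, prepared on Day 2 of pregnancy from mice aged 8 to 12 weeks. The oviduct was digested with enzymes, and the cells were filtered and plated for some hours before 50000 of them were fixed for each library. ChIC-Seq, in which an antibody leads protein A fused to micrococcal nuclease to its target in fixed cells, was run with antibodies to BRG1 and to PBRM1, also called BAF180. The labels give 3 replicates for each antibody without saying whether these came from separate animals. They also list 3 IgG control samples, which were not analysed here. Every PBRM1 library was deeper than every BRG1 library, with 18126049 to 23992352 fragments against 14284532 to 15897724. Depth and antibody therefore cannot be told apart.

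SWI/SNF complexes are chromatin remodelers, machines that move histones along the DNA or off it and so change which sequences other factors can reach. BRG1, encoded by *Smarca4*, is an ATPase found in each of the main forms of the complex, whereas PBRM1 is a bromodomain subunit found in the PBAF form and not in the canonical BAF form, which carries ARID1A or ARID1B instead. In smooth muscle, BRG1 is known for work with serum response factor and myocardin at contractile genes. The cell type label was checked at promoters, taken as 2 kb to either side of a start site. All 3 BRG1 lists had a promoter peak at 7 of 10 smooth muscle markers, including *Acta2*, *Tagln* and *Mylk*. *Myh11* had a promoter peak in 1 BRG1 list, and *Cnn1* and *Actg2* in none. None of 10 epithelial markers and none of 5 immune markers had a promoter peak in all 3 lists. *Cdh1* had a peak in 2 BRG1 lists, and *Krt8* and *Elf3* in 1. For fibroblast markers the count in all 3 lists was 1 of 5 (*Dcn*, whose promoter is itself a BRG1-only region). *Pdgfra* and *Col3a1* had a peak in 2 BRG1 lists. For endothelial markers the count in all 3 lists was 2 of 5 (*Kdr* and *Tek*). The part of other cell types in the regions below was not tested.

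The sequences of 5 windows show what such regions look like. The sequences at *Itprid2*, *Il6st*, *Gm31371* and *Adamtsl1* are the 4 strongest usable regions that also lacked a peak when the PBRM1 libraries were pooled, and the sequence at *Pbrm1* is from the strongest of all 734. Each covers 100 bp to either side of the summit of the strongest BRG1 peak on the plus strand of GRCm38.p6, written 5′ to 3′, and capitals mark matches to the motifs described further on. They lie at chr2:79618979-79619179, chr13:112443500-112443700, chr8:20122136-20122336, chr4:85957242-85957442 and chr14:31065065-31065265, in that order.
Itprid2: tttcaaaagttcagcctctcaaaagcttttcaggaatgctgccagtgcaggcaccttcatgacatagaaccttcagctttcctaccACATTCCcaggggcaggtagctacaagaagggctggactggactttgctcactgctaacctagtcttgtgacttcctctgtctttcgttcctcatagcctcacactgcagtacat
Il6st: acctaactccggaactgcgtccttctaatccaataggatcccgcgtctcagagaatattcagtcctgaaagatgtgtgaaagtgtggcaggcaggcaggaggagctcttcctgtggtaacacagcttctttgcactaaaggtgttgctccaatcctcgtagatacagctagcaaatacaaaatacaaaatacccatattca
Gm31371: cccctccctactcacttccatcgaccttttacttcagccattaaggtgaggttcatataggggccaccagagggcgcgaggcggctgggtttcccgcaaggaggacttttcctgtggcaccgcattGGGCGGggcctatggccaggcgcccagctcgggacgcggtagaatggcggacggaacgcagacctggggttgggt
Adamtsl1: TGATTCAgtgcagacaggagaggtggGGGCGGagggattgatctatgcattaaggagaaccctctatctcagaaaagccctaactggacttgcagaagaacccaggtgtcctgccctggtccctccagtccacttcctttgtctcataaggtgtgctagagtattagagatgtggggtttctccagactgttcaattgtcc
Pbrm1: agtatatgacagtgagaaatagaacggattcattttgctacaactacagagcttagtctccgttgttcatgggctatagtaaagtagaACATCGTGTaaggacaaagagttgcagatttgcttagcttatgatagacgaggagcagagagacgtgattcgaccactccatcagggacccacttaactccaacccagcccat
The *Itprid2* window lies in intergenic sequence 16.3 kb upstream of the gene and holds 1 match, the TEAD letters. The *Il6st* window, 20.5 kb upstream of the gene for the receptor chain shared by the interleukin 6 family, holds none of the 17 motifs in this stretch. The *Gm31371* window lies 148 bp upstream of the processed pseudogene *Gm21769*, far from any coding gene, and holds 1 SP/KLF match. The *Adamtsl1* window is in an intron of a gene for a secreted matrix protein and holds 1 AP-1 and 1 SP/KLF match. The *Pbrm1* window is in an intron of the gene for the other protein studied here and holds 1 match to the palindromic steroid receptor letters.

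Most BRG1-only regions were of modest height. Fold enrichment, the pileup at the summit divided by the background around it in the same library, had a median of 4.26 in BRG1 replicate 1, 4.20 in replicate 2 and 4.29 in replicate 3. The medians over all autosomal peaks of those lists were 4.43, 4.49 and 4.55, and those at shared regions were 5.55, 5.39 and 5.71. In every BRG1 library the BRG1-only regions were thus below the usual peak, and further below the shared ones. The median −log10 q at BRG1-only regions was 4.40, 4.02 and 4.33 in the same order, against 10.2, 8.75 and 10.2 at shared regions. Of the 734 regions, 60.6%, 65.4% and 63.8% ranked in the weaker part of the list, below its median. Only 5, 3 and 6 regions were among the strongest 10% of peaks. The median pileup was 14, 13 and 13 fragments.

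**Figure D1:**
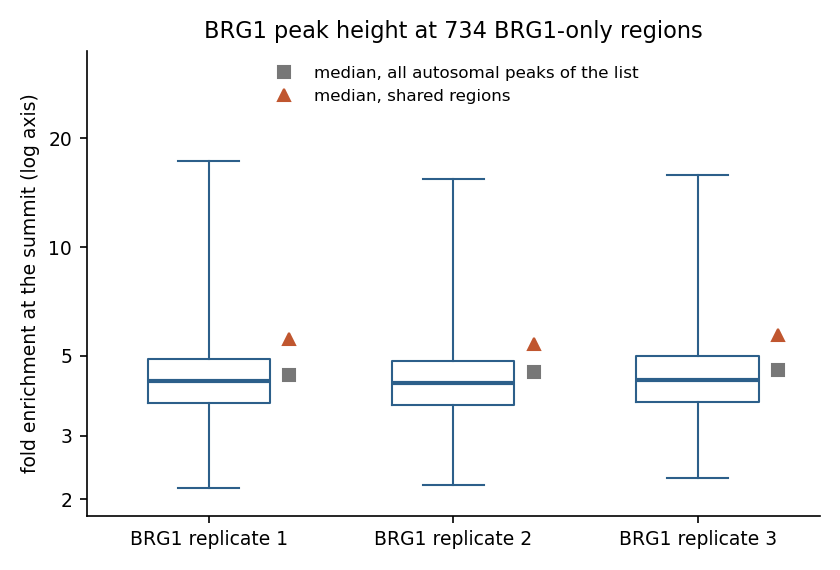
Fold enrichment of the BRG1 peak at the 734 BRG1-only regions in each BRG1 library, on a log axis. Boxes give the quartiles, thick lines the medians of 4.26, 4.20 and 4.29, and whiskers the full range, while squares and triangles give the medians of all autosomal peaks and of shared regions, both above the BRG1-only median in each library.

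Over the 3 libraries, fold enrichment at the same region had a median coefficient of variation of 13.4%. Every member had to pass the cutoff in all 3 lists, and fold enrichment varied little between members. In BRG1 replicate 1, for example, its quartiles were 3.70 and 4.89. This value therefore does not show that the libraries agreed region by region. Taking for each region the lowest −log10 q of its 3 BRG1 peaks, the values ran from 1.31 to 31.4 with a median of 2.98. The weakest member sat just above the authors' q cutoff of 0.05. Only 70 regions reached 5 in all 3 lists and 6 regions reached 10. All 3 peaks were under 5 at 244 regions. Just outside the rule were 1629 regions with 3 BRG1 lists and 1 PBRM1 list, and 3199 regions with 2 BRG1 lists and no PBRM1 list.

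Among the regions with a peak in all 3 BRG1 lists, the share with no PBRM1 list fell as the BRG1 peaks became stronger. When these regions were ranked by their lowest −log10 q and cut into 10 groups of equal size, 15.2% of the weakest group (274 of 1807) had no PBRM1 list. In the next groups the share was 8.74% and 6.87%. In the strongest group it was 0.111% (2 of 1807). The rule itself uses these peaks, so the trend describes where the members lie and is not evidence about them.

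The pooled PBRM1 list, called by the authors on the 3 PBRM1 libraries together, had a peak at most of the BRG1-only regions. No pooled PBRM1 peak touched 111 of the 734 regions, or 15.1% (95% Wilson interval 12.7 to 17.9). The mirror share was larger, since 391 of 1000 PBRM1-only regions, 39.1% (36.1 to 42.2), had no peak in the pooled BRG1 list. The pooled PBRM1 list held 92965 autosomal peaks, against 31474 to 37525 in its replicate lists. For neither pooled list was the share over all merged regions computed, so whether these shares are unusual cannot be said. At the 623 regions with a pooled PBRM1 peak its fold enrichment had a median of 3.08, with quartiles of 2.66 and 3.54. The median over all autosomal pooled PBRM1 peaks was 3.29. At the 734 regions the pooled BRG1 peak had a median of 4.77, compared with 3.64 for all autosomal pooled BRG1 peaks. The pooled PBRM1 value was below the pooled BRG1 value at 604 of 623 regions. The rule asks for a peak in all 3 BRG1 lists and so favours the BRG1 side of this comparison. Most BRG1-only regions were therefore sites with a PBRM1 peak listed after pooling, with a median a little below that of the whole pooled PBRM1 list. At 111 sites none was listed. Pooling reuses the fragments of the replicate libraries, and the lists were made at different depths (61910852 fragments for PBRM1 and 45216486 for BRG1), so these values are not an independent check of the rule.

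**Figure D2:**
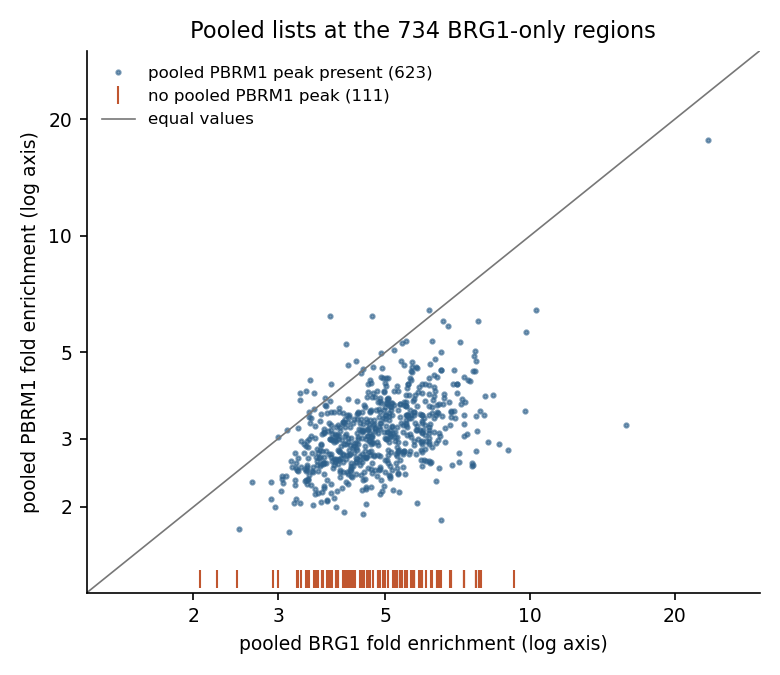
Fold enrichment in the pooled BRG1 list against the pooled PBRM1 list at each BRG1-only region, both on log axes. Dots are the 623 regions with a pooled PBRM1 peak, of which 604 lie below the line of equal values, and the ticks along the base are the 111 regions with none, placed by their BRG1 value alone.

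PBRM1 peaks were often near. The median gap from a BRG1-only region to the nearest peak in any PBRM1 replicate list was 4566 bp. Such a peak lay within 500 bp of 170 regions (23.2%) and within 10 kb of 480 regions (65.4%). For PBRM1-only regions the median gap to a BRG1 peak was 5924 bp, and 19.5% had one within 500 bp. BRG1-only regions seldom lay beside each other, as 15 had another within 10 kb and 63 within 100 kb. They were spread over all 19 autosomes, with between 0.617% of merged regions on chromosome 17 and 1.21% on chromosome 12. Their median width was 454 bp, against 851 bp for shared regions and 346 bp for all merged regions. With 3 BRG1 lists and 1 or 2 PBRM1 lists it was 561 and 663 bp. A merged region spans all of its peaks, so its width tends to grow with the number of lists by construction.

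Libraries left out of the choice show how far the pattern carries over. The rule was applied with 2 BRG1 and 2 PBRM1 lists, in all 9 ways of leaving out 1 library of each antibody, which gave 2237 to 3132 regions. Of these regions, 42.4% to 54.1% had a peak in the BRG1 library left out, with a mean of 48.0%. In the PBRM1 library left out the share was 26.6% to 36.9%, with a mean of 32.6%. The BRG1 share was the higher in 9 of 9 choices, by 8.49 to 24.2 percentage points. For each BRG1 library left out, the gap was largest when the PBRM1 library left out was replicate 2, which has the fewest peaks. For the reverse choice, PBRM1 regions had a peak in the left-out PBRM1 library at 42.6% to 56.9% and in the left-out BRG1 library at 24.1% to 31.0%. Over all merged regions, 46.3%, 41.25% and 43.8% had a peak in BRG1 replicates 1, 2 and 3. The shares in PBRM1 replicates 1, 2 and 3 were 44.7%, 37.6% and 44.4%. Regions chosen as BRG1-only had 51.9% to 54.1% in BRG1 replicate 1 when it was left out, 42.4% to 44.0% in replicate 2 and 47.35% to 49.8% in replicate 3. Each of these shares was somewhat above that of all merged regions in the same library. In the left-out PBRM1 library their shares were below that of all merged regions. All merged regions set a low bar for recurrence, as 20887 had a peak in 1 BRG1 list alone and 17417 in 1 PBRM1 list alone. The share among regions with a peak in 2 BRG1 lists, whatever the PBRM1 lists, was not computed. These values therefore do not show that BRG1-only regions recur well. The 9 choices share libraries and were given no test.

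**Figure D3:**
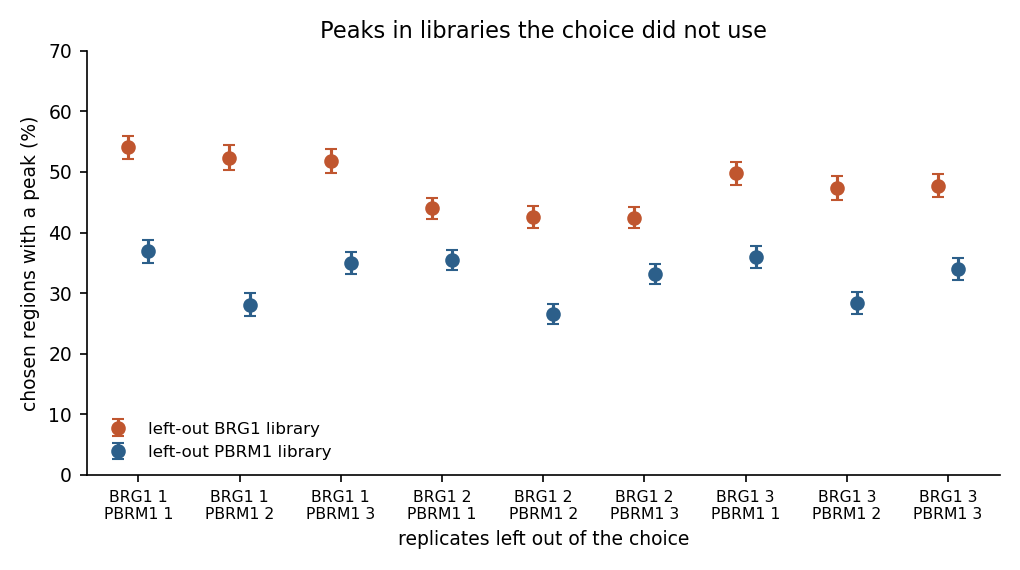
Share of regions with a peak in the library left out, for each of 9 choices of regions on 2 BRG1 and 2 PBRM1 lists. Points are shares and bars are 95% Wilson intervals, and the left-out BRG1 library (42.4% to 54.1%) lies above the left-out PBRM1 library (26.6% to 36.9%) in every choice.

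BRG1-only regions lay at promoters more often than merged regions as a whole. The summit was within 2 kb of the start site of an annotated transcript at 313 of 734 regions, or 42.6% (95% Wilson interval 39.1 to 46.3). Of the others, 208 were in introns, 12 were in exons and the rest were intergenic. The promoter share was 14.4% (12.4 to 16.7) in PBRM1-only regions, 30.5% (30.2 to 30.8) in all merged regions and 64.8% (64.0 to 65.7) in shared regions. The intervals of these 4 sets do not overlap, and they cover counting error only. Regions with 3 BRG1 lists and 1 or 2 PBRM1 lists had promoter shares of 44.9% and 45.3%, which lie inside the interval of the BRG1-only regions. Regions with 2 BRG1 lists and no PBRM1 list had 29.6%. The promoter share was thus close to that of other regions listed in all 3 BRG1 libraries but not in all 6, and well above that of PBRM1-only regions.

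Peak height moved with the promoter share. At BRG1-only regions whose lowest −log10 q was under 2 the promoter share was 36.0% (36 of 100), from 2 to 3 it was 37.6% (103 of 274), from 3 to 5 it was 45.2% (131 of 290), and from 5 upwards it was 61.4% (43 of 70). In the same classes of height, regions with 3 BRG1 lists and 1 PBRM1 list had 31.2%, 40.0%, 45.5% and 58.4%. For shared regions the shares were 28.3%, 31.7%, 39.8% and 76.3%. Within a class of height the promoter share of BRG1-only regions differed little from regions that also had 1 PBRM1 list. Only in the class from 5 upwards were the shared ones higher. That class has no upper limit, so heights within it are not matched. The upper quartile of the lowest −log10 q over all shared regions was 11.4, whereas only 6 BRG1-only regions reached 10.

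The summits formed a near group and a far group. At the 313 promoter regions the median distance to the start site was 180 bp, and 103 of all 734 regions (14.0%) lay within 100 bp of one. At the 421 distal regions the median distance was 16285 bp. Over all 734 the median was 5226 bp, compared with 13365 bp for PBRM1-only regions, 187 bp for shared regions and 7962 bp for all merged regions. More than 10 kb separated 281 regions (38.3%) from any start site, and 18 lay beyond 100 kb. In the 111 regions with no pooled PBRM1 peak, 56 were at promoters (50.5%, 41.3 to 59.6), and in the 623 others 257 were (41.3%, 37.5 to 45.2). These intervals overlap.

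GC content separated the same sets. Over 250 bp to either side of the summit, the median GC content of BRG1-only regions was 50.1%, against 41.3% in PBRM1-only regions, 47.1% in all merged regions and 57.7% in shared regions. Regions with 3 BRG1 lists and 1 or 2 PBRM1 lists had 50.5% and 51.3%. The promoter regions of the BRG1-only set had a median of 62.7% and its distal regions 46.9%. The distal median was 40.8% in PBRM1-only regions, 45.3% in all merged regions and 48.1% in shared regions. In distal regions with 3 BRG1 lists and 1 or 2 PBRM1 lists it was 47.1%. Away from promoters, BRG1-only regions were thus near the other sets, and PBRM1-only regions were the lowest. A CpG-rich window, with GC of at least 50% and CpG at no less than 0.6 of the number its base content predicts, was found at 215 of 313 BRG1-only promoters (68.7%, 63.4 to 73.6). The share was 46.3% at all merged promoter regions, 9.03% (5.35 to 14.8) at PBRM1-only promoters and 78.7% (77.8 to 79.5) at shared promoters. Promoter regions with 3 BRG1 lists and 1 or 2 PBRM1 lists had 64.8% and 65.7%, both inside the BRG1-only interval. The antibodies also differed in the GC content of their peaks as a whole, with library medians of 49.7% to 50.5% for BRG1 and 48.1% to 49.5% for PBRM1. The part of this library-wide difference in the composition of BRG1-only regions was not tested. At least 50% of the window was repeat-masked at 18 of the 734 regions.

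**Figure D4:**
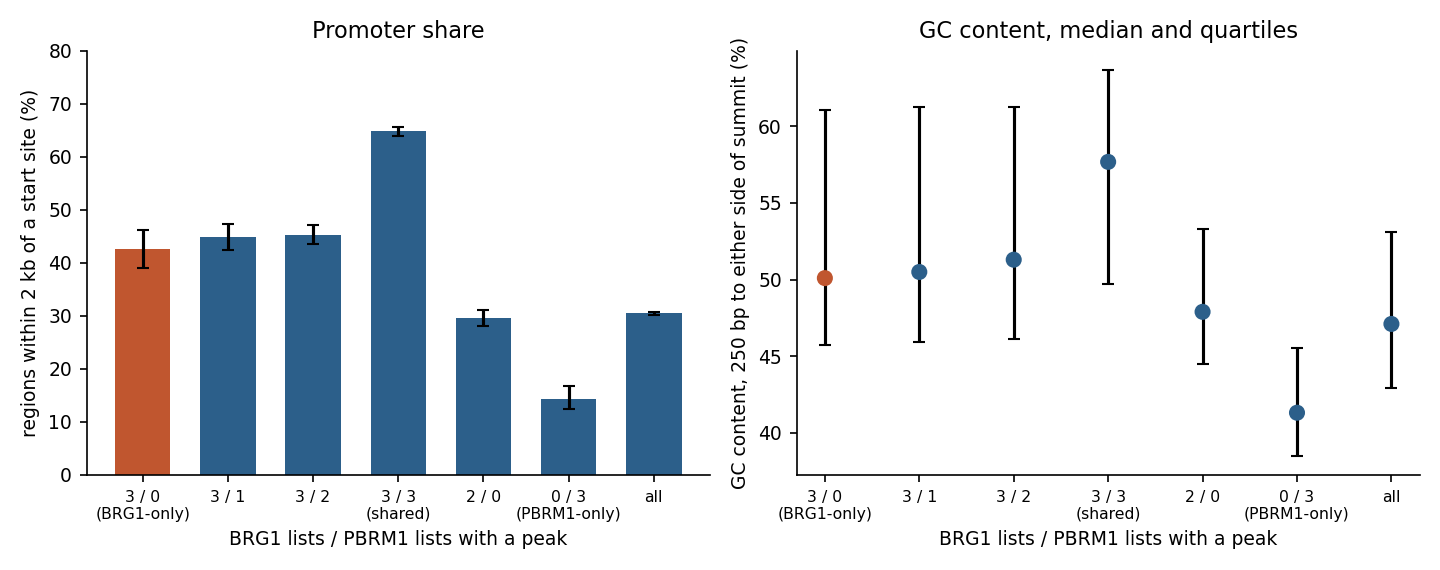
Promoter share with 95% Wilson intervals, and median GC content with quartiles, for regions sorted by the number of BRG1 and PBRM1 lists with a peak. BRG1-only regions (42.6% at promoters, median GC 50.1%) lie beside regions with 3 BRG1 lists and 1 or 2 PBRM1 lists, below shared regions (64.8%, 57.7%) and above PBRM1-only regions (14.4%, 41.3%).

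Motif letters were searched on both strands of the same window around the summit. The AP-1 letters were TGANTCA, those of the cAMP response element TGACGTCA, those of TEAD factors ACATTCC, those of RUNX factors TGTGGTT and those of zinc fingers of the GATA family AGATAAG. The E-box letters were CAGCTG, and those of the palindromic steroid receptor site ACANNNTGT. The CArG box was searched in its usual form. The letters for ETS factors were CCGGAAG, for the factor NRF1 GCGCATGCG, for the SP/KLF group GGGCGG, for the complex NF-Y AGCCAAT, for the NFI family TTGGCA, for the insulator protein CTCF AGGGGGCG, for the factor YY1 AAGATGGCG, for the forkhead (FOX) family TGTTTAC and for homeobox factors TAATTA. A CTCF match followed by G also contains an SP/KLF match. A match says that the letters are present and nothing about a factor.

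At BRG1-only promoters the most common match was SP/KLF, the GC box bound by Sp1 and Krüppel-like factors, found in 64.9% (59.4 to 69.9). All promoter regions of the merged set had it in 50.1%, PBRM1-only promoters in 22.9% and shared promoters in 75.9%. Letters that mark many housekeeping promoters were less common than at shared promoters. ETS letters were at 10.5% (7.61 to 14.4) of BRG1-only promoters and 24.3% of shared ones, NF-Y letters at 4.15% (2.44 to 6.98) and 15.0%, and NRF1 letters at 1.28% (0.498 to 3.24) and 4.70%. All merged promoter regions had ETS letters in 12.6% and NRF1 letters in 2.08%, both inside the BRG1-only intervals, and NF-Y letters in 9.27%, above it. Promoter regions with 3 BRG1 lists and 1 PBRM1 list had 12.6% for ETS, 1.78% for NRF1 and 6.16% for NF-Y. At distal BRG1-only regions the common matches were AP-1, the site of Fos and Jun dimers, and the E-box, the site of basic helix-loop-helix factors. AP-1 letters were in 40.9% (36.3 to 45.6) of distal BRG1-only windows. The share was 51.6% (48.3 to 55.0) in distal PBRM1-only windows, 53.9% in distal shared windows and 37.6% in all distal merged regions.

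E-box letters were in 36.8% (32.4 to 41.5) of distal BRG1-only windows, 22.3% (19.7 to 25.2) of distal PBRM1-only windows, 34.3% of distal shared windows and 28.6% of all distal merged regions. TEAD letters, the site of the factors that carry YAP and TAZ, were in 10.5% (7.88 to 13.7) of distal BRG1-only windows and 18% (15.6 to 20.7) of distal PBRM1-only windows. The AT-rich homeobox letters were in 9.50% (7.06 to 12.7) and 15.7% (13.4 to 18.2). All distal merged regions had TEAD letters in 13.1% and homeobox letters in 12.6%. These shares and that of AP-1 over all distal merged regions lie inside the BRG1-only intervals, so here BRG1-only regions were near the whole. Distal regions with 3 BRG1 lists and 1, 2 or 3 PBRM1 lists had TEAD letters in 15.0%, 15.1% and 16.5%. All of these shares lie above the BRG1-only interval. Distal regions with 2 BRG1 lists and no PBRM1 list had TEAD letters in 11.3%, inside that interval. In the 55 distal BRG1-only regions with no pooled PBRM1 peak the share was 18.2% (10.2 to 30.3). For distal regions with 3 BRG1 lists and 1, 2 or 3 PBRM1 lists, AP-1 letters were in 43.9%, 50.7% and 53.9%. Of these, 43.9% alone lies inside the BRG1-only interval. The homeobox shares of the same regions, 9.24%, 10.0% and 9.69%, all lie inside that for homeobox letters. The E-box share of BRG1-only regions was above that of all distal merged regions, whose value lies below its interval, and close to that of distal shared regions. The GC content of the sets differed in the same direction as that of most of these letters, and its part in the shares was not tested. In windows of the same length centred 2 kb to either side of the 734 summits, AP-1 letters were in 15.8% and E-box letters in 19.1%, against 28.6% and 32.8% at the summits. Other letters were less common at the summits. Homeobox letters were in 17.6% of the windows 2 kb away and 7.90% at the summits, and steroid receptor letters in 16.4% and 12.1%. FOX, GATA, NF-Y and CArG letters were also lower at the summits. The CArG box, the site of serum response factor, was in 1.91% (1.14 to 3.18) of BRG1-only windows, 3.27% of the windows 2 kb away and 3.04% of all merged regions.

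**Figure D5:**
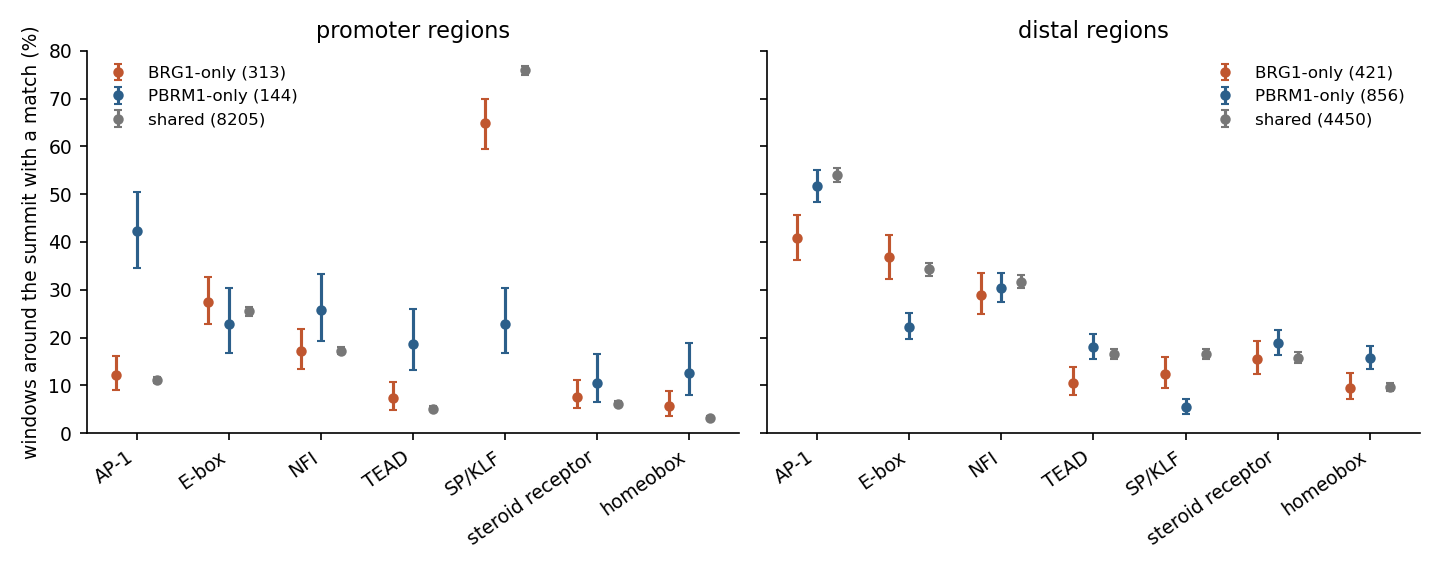
Share of windows reaching 250 bp to either side of the summit with a match to 7 of the motifs, at promoter and distal regions, with 95% Wilson intervals. SP/KLF letters lead at BRG1-only promoters (64.9%), and at distal regions BRG1-only windows lie above PBRM1-only windows for the E-box (36.8% and 22.3%) and below them for AP-1 (40.9% and 51.6%).

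Each region was given the protein-coding gene with the nearest start site, a rule of distance that does not say which gene a region serves. The 734 regions pointed to 679 of 20780 autosomal coding genes (3.27%), and 51 genes were nearest to more than 1 region. At the 313 promoter regions the nearest start site belonged to a protein-coding gene in 251 (80.2%), a long noncoding RNA in 37, a pseudogene in 11, a small RNA in 9 and an experimentally unverified transcript in 5. The protein-coding share, 75.4% to 84.2% by its interval, was close to the 79.2% of all merged promoter regions, above the 65.3% of PBRM1-only promoters and below the 89.3% of shared promoters. Shares of long noncoding RNAs (11.8% and 12.1%) and of pseudogenes (3.51% and 3.52%) were also close to those of all merged promoter regions. At 75 of the 313 promoter regions (24.0%, 19.6 to 29.0) the nearest coding gene had a shared region at a promoter of its own as well. The share was 52.1% at PBRM1-only promoters and 56.7% at all merged promoter regions, which include the shared regions themselves. At promoter regions with 3 BRG1 lists and 1 or 2 PBRM1 lists it was 25.03% and 20.3%, so the BRG1-only value was near theirs. For distal BRG1-only regions this held at 194 of 421 (46.1%), for distal PBRM1-only regions at 46.0% and for all distal merged regions at 46.6%. The 3 sets of distal regions had nearly the same share.

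The strongest BRG1-only region was in an intron of *Pbrm1* (chr14:31064824-31065178), 19.0 kb upstream of the nearest *Pbrm1* start site. Its fold enrichment was 14.6, 12.7 and 12.1 in BRG1 replicates 1, 2 and 3 (mean 13.1 ± 1.34, SD, n = 3), and 15.8 in the pooled BRG1 list. The pooled PBRM1 list had a peak of 3.25 there. The region ranked next, in intergenic sequence 263 kb from *Mc2r* at chr18:68692070-68692282, had 17.4, 15.5 and 15.8. No PBRM1 replicate had a peak there, yet the pooled PBRM1 list did, at 17.6 and a length of 189 bp, where the shortest peak of that list is 177 bp and the shortest of the 3 PBRM1 replicate lists are 174 to 184 bp. This was the highest pooled PBRM1 value at any of the 734 regions, so the region is BRG1-only by the rule and not by the pooled PBRM1 signal.

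Of the 10 regions that followed in rank, 7 lay within 150 bp of the start of the named coding gene. These were *Baiap2*, an adaptor of actin remodeling, *Gtf2e2*, a subunit of general factor TFIIE, *Camta1*, a calmodulin-binding transcription activator, *Fam102b*, *Ssbp2*, a single-strand DNA binding protein, *Zfp664*, and *Cnn3*, the acidic calponin. At the *Baiap2* promoter the fold enrichment was 5.23, 4.86 and 4.63 in the BRG1 libraries, while the pooled PBRM1 list gave 5.07. At the *Gtf2e2* promoter it was 5.80, 6.27 and 8.45, with a pooled PBRM1 value of 4.49. At the *Camta1* promoter it was 5.84, 6.44 and 7.18, with 3.73. At the *Cnn3* promoter it was 3.85, 4.52 and 4.08, with 2.66. Each of these promoters thus had a pooled PBRM1 peak. At *Baiap2* its value lay within the range of the BRG1 libraries, but a pooled list and single libraries differ in depth and were not normalised to each other. The *Cnn3* promoter had a GC content of 74.9%.

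The other 3 regions of that group were away from coding starts. At chr4:98322294-98322680, at the start of the antisense transcript *0610025J13Rik* and 52.6 kb from *Tm2d1*, the fold enrichment was 6.35, 6.41 and 7.86. At chr17:70963669-70963891, in an intron 12.2 kb from the start of *Myl12b*, a regulatory light chain of nonmuscle myosin, it was 9.76, 7.34 and 7.42. The pooled PBRM1 list had 6.45 there. At chr4:89351111-89351694, 40.5 kb upstream of *Cdkn2b*, an inhibitor of the cyclin D kinases, it was 7.22, 6.04 and 6.25, with a pooled PBRM1 value of 3.54.

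Of the regions with no pooled PBRM1 peak, the 8 strongest were those nearest to *Itprid2*, *Il6st*, *Gm31371*, *Adamtsl1*, *Fshr*, *Sp8*, *Gorab* and *Ppp1r16b*. At *Itprid2* the fold enrichment was 7.13, 6.10 and 6.93 in the BRG1 libraries, and the nearest PBRM1 replicate peak was 15319 bp away. At *Il6st* it was 4.55, 4.81 and 5.19, with a PBRM1 peak 2862 bp away. At *Adamtsl1* it was 4.85, 5.91 and 7.84. Over 250 bp to either side of the summit, these 3 regions all held AP-1 letters, and the *Itprid2* region also held the TEAD letters shown in its sequence.

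At *Fshr*, the receptor of follicle-stimulating hormone, the region was 80.7 kb upstream (chr17:89281081-89281543) and had a fold enrichment of 5.33, 6.09 and 6.06. Its nearest PBRM1 peak was 128431 bp away, the longest gap of the 8. The region at *Gorab*, 40.3 kb upstream, had 4.78, 6.71 and 7.18. The region at *Ppp1r16b*, which encodes a membrane-bound subunit of protein phosphatase 1, was 73 bp from the start site and had 4.72, 5.90 and 4.58. The *Sp8* region lay wholly in repeat-masked sequence, which limits how surely reads can be placed there. Only *Ppp1r16b* of these 8 was at the start of a coding gene. This does not carry over to the full set without a pooled PBRM1 peak, where 56 of 111 regions were at the promoter of an annotated transcript.

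Genes with 3 regions each were *Bnc2*, *Cdh11*, *Foxp1* and *Pcnx*, named here after their counts were seen, and no gene had more. *Foxp1*, a forkhead repressor, had all of its regions inside the gene, 1 of them 350 bp downstream of a start site (fold enrichment 2.91, 4.13 and 3.59) and the others 8506 bp and 25543 bp from one. *Cdh11*, the cadherin of mesenchymal cells, had 1 region inside the gene with 6.59, 4.30 and 3.67, and its others at 40.5 kb and 531 kb. *Bnc2*, a zinc finger protein of mesenchymal cells, had 1 region at its promoter with 4.71, 4.09 and 3.45.

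Gene lists gave small counts. For 39 extracellular matrix genes, 11 regions were nearest to 9 genes (*Adamts5*, *Col12a1*, *Col1a2*, *Col5a2*, *Col6a3*, *Dcn*, *Fbn2*, *Lox* and *Vcan*). That is 1.50% of BRG1-only regions (0.839 to 2.66), compared with 0.955% of all merged regions and 1.40% of PBRM1-only regions, so the interval holds both. The *Dcn* promoter region, 68 bp from the start of the gene for the proteoglycan decorin, had a fold enrichment of 4.80, 7.04 and 6.75, and a pooled PBRM1 value of 3.09. The *Vcan* promoter region, at the gene for versican, had 3.30, 3.97 and 3.24. The regions inside *Col6a3* (2.91, 3.08 and 3.27) and *Col5a2* (4.69, 6.18 and 4.60), which encode chains of collagens VI and V, were at starts of unverified transcripts within those genes. The region nearest to *Adamts5*, an aggrecan-cutting protease, was 496 kb away and had no pooled PBRM1 peak.

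For 36 genes of BMP and TGF-β signaling, 8 regions were nearest to 7 genes, or 1.09% of BRG1-only regions (0.553 to 2.14) against 0.657% of all merged regions. Among ligands, *Tgfb1* had a region 29 bp from its start with 3.25, 3.18 and 3.79. Among receptors, *Bmpr1a* had 1 at 229 bp with 3.57, 3.74 and 4.07, *Bmpr1b* had 1 at 34 bp with 3.33, 5.84 and 5.46, and the region for *Acvr2a* was 357 kb away at a long noncoding RNA. Among inhibitors, the region for *Chrd*, which encodes chordin, was 93.8 kb away and had no pooled PBRM1 peak. The target genes *Id2* and *Id4* were each over 500 kb from their region. The interval for the list holds the share of all merged regions.

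For 22 hedgehog and Notch genes, 5 regions were nearest to 4 genes (0.681%, 0.291 to 1.59, against 0.256% of all merged regions). *Gli2*, which encodes a hedgehog effector, had a region in an intron with 3.97, 4.22 and 4.42 and another 69.9 kb upstream with 3.31, 4.57 and 3.76. *Hey1*, a Notch target, had 1 at 89 bp from its start with 3.60, 3.60 and 3.83. *Gli3* had 1 in an intron, and the region for the ligand *Jag1* was 475 kb away. The lower bound of this interval lies just above the share of all merged regions, but 16 lists were examined and the count is 5.

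Steroid hormones act on the oviduct throughout early pregnancy. Of 15 genes for steroid receptors and their cofactors, 3 were nearest to 4 regions (0.545%, 0.212 to 1.39, against 0.293%). *Esr1*, the estrogen receptor, had a region inside the gene with 6.76, 4.17 and 8.26 and another with 3.95, 4.69 and 4.64, and the pooled PBRM1 list had 6.03 and 3.30 at them. The coactivator gene *Ncoa1* had 1 intronic region. Of 22 genes of prostaglandin signaling, 1 was nearest to a region (0.136%, 0.0241 to 0.768, against 0.208% of all merged regions). This was *Ptger3*, the EP3 receptor through which prostaglandin E2 contracts smooth muscle, with a region 177 bp from its start at chr3:157566726-157567752. Its fold enrichment was 5.86, 5.02 and 4.36 in the BRG1 libraries and 3.71 in the pooled PBRM1 list. The nearest PBRM1 replicate peak was 31746 bp away.

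None of 16 smooth muscle contractile genes and none of 9 SRF and myocardin factor genes was nearest to a BRG1-only region, which allows at most 0.521% of regions for each list. These lists were nearest to 0.164% and 0.199% of all merged regions, and at 734 regions their absence is therefore not distinguishable from those shares. At least 1 shared region was at a promoter of 10 of the 16 contractile genes. Of 25 genes of calcium handling, 2 were nearest to 3 regions, or 0.409% of BRG1-only regions against 0.445% of all merged regions. These were *Plcb1*, the phospholipase that makes inositol trisphosphate, 16 bp from its start (5.52, 5.90 and 6.36) and in an intron, and *Stim1*, the calcium sensor of the endoplasmic reticulum, 8 bp from its start (3.47, 3.08 and 3.48).

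The other 8 lists had 1 to 3 regions each, or 0.136% to 0.409% of BRG1-only regions. They held 0.147% to 0.650% of all merged regions, and for each list the BRG1-only interval holds that share. For genes of reproductive tract development these were *Twist2* at 105 bp from its start, *Meis2* at 12.1 kb and *Osr1* at 231 kb. The *Twist2* promoter region had 3.98, 3.70 and 2.99 and no pooled PBRM1 peak. For immediate early genes they were *Klf6*, with 2 regions, and *Myc*, whose region was 375 kb upstream. For YAP and TEAD genes they were *Wwtr1*, encoding TAZ, and *Amotl1*. *Adra2a* of the adrenergic and peptide receptors, *Pde3a* of the cGMP genes, *Fgfr1* of the fibroblast growth factor genes and *Sfrp2* of the Wnt genes were each nearest to 1 region. Of 29 SWI/SNF subunit genes, *Pbrm1* and *Arid1b* were nearest to 1 region each, and the *Arid1b* region, in an intron, had 5.34, 4.00 and 6.53.

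Among gene families sorted by symbol, the semaphorins and plexins, guidance ligands and their receptors, had 7 regions at 6 of 27 genes (*Plxnd1*, *Sema3a*, *Sema3e*, *Sema4f*, *Sema5a* and *Sema7a*). This was 0.954% of BRG1-only regions (0.463 to 1.96), against 0.379% of all merged regions and 0.300% of PBRM1-only regions. *Sema3a* had 2 intronic regions, with 5.78, 6.56 and 4.66 at 1 and 6.22, 5.31 and 3.73 at the other, which had no pooled PBRM1 peak. Histone genes had 4 regions at 4 of 73 genes (*H2afy2*, *Hist1h3b*, *Hist1h4k* and *Hist1h4m*), all at promoters. This was 0.545% (0.212 to 1.39) against 0.123% of all merged regions and none of the PBRM1-only regions. The *Hist1h3b* region, 21 bp from the start of a histone H3 gene, had 4.42, 3.46 and 4.09. Clustered histone genes have near-identical copies, so reads there are less surely placed. For semaphorins and plexins and for histone genes the interval lay above the share of all merged regions. Collagen chains had 7 regions at 7 of 42 genes, or 0.954% against 0.609%. Of 1127 olfactory receptor genes, which most tissues leave silent, 2 were nearest to a region (0.272%, 0.0748 to 0.988, against 0.141% of all merged regions). None of 65 Rab GTPase genes and none of 28 integrin genes was, which allows up to 0.521% of regions for each, and all merged regions had 0.335% and 0.244%. In all, 20 families were counted, each family share rests on few regions, and genes with long intergenic flanks collect more regions by distance alone.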

How the data were processed

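ChIC-Seq peak lists of 6 libraries (BRG1 and PBRM1, 3 replicates each) and 2 pooled lists were used. Per the labels, the authors used cutadapt, Bowtie2 and MACS2 with GRCm38.p5. Read filters were not given in the sources used here. Per the file headers, MACS 2.2.7.1 called narrow peaks from paired fragments at a q cutoff of 0.05, kept all fragments, and took no control file, so background was estimated from fragments of that library within 10 kb. The pileup in the deposited lists is the coverage by fragments at the summit, with no correction for depth. As deposited, fold enrichment divides this pileup by the local background, a ratio within 1 list that was not normalised to other lists. The deposited −log10 q is adjusted within each list. Without a control, sites cut in open chromatin whatever the antibody can be called.

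Peaks on the 19 autosomes were merged when they shared at least 1 bp. The summit of the strongest peak placed each region against GENCODE M21 start sites. GC content, CpG and motifs were read from GRCm38.p6, over 250 bp to either side of the summit. Intervals of shares are 95% Wilson intervals, for counting error alone. No difference was tested, because the regions were chosen on these lists and the regions are not replicates. The merging, annotation and motif steps were tested on simulated data. Regions were named by a rule: the 12 with the highest value of the lowest −log10 q over the BRG1 lists, the 8 highest without a pooled PBRM1 peak, genes nearest to 4 or more regions (there were none), and up to 4 genes of each preset list nearest to a region. Outside this rule, *Bnc2*, *Cdh11*, *Foxp1*, *Pcnx*, *Bmpr1b*, *Id2*, *Id4*, *Vcan*, *Lox*, *Fbn2*, *Col1a2*, *Col12a1*, *Plxnd1*, the semaphorins and the histone genes were named after their values were seen, and marker genes came from the marker lists. One gene that the rule names is not reported here. The regions, lists and motifs were chosen with earlier results of these data known. Python 3.11.15, numpy 2.4.6, pandas 2.3.3, scipy 1.17.1, pysam 0.24.0 and matplotlib 3.10.9 were used. Alternatives covered the q threshold, list size, merging distance, promoter distance, transcripts, window and each library in turn.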

Additional observations from a re-analysis of the deposited data

How the results depend on the processing

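Of 74 recomputed main results, 28 stayed within the limits set (1.5-fold for a count, the 95% interval for a share or median) and 46 moved. With a −log10 q of at least 5 in all 6 lists there were 607 regions. This limit also drops weaker PBRM1 peaks, so regions that have them can count as BRG1-only. The share with no pooled PBRM1 peak was then 0.989%, the promoter share 60.3%, the median distance 324 bp and the median GC content 57.9%. The left-out difference was 25.2 points, against 15.4 as reported. With equal numbers of the strongest peaks per list, 10.2% had no pooled PBRM1 peak, 47.1% were at promoters and median GC was 51.3%. With that limit on BRG1 peaks alone there were 70 regions near 70 genes, of which 7.14% had no pooled peak and 61.4% were at promoters, at a median distance of 360.5 bp and GC of 57.2%. Merging peaks up to 500 bp apart gave a promoter share of 39.1%, and asking for no pooled PBRM1 peak within 500 bp gave 9.54%. The promoter share was 38.2% at 1 kb, 49.3% at 5 kb and 34.1% for coding transcripts, for which the median distance was 15588 bp. GC over 100 bp to either side of the summit was 52.7%. Leaving out 1 library gave 1177 to 2037 regions, 1064 to 1700 genes, 7.94% to 23.9% with no pooled peak, 33.3% to 45.5% at promoters, medians of 3716 to 7514 bp and GC of 48.1% to 50.9%. By construction, 1 list fewer admits more regions, and each of the 6 libraries raised the count by over 1.5 times when left out. For single motifs, 24 of 34 recomputed shares moved, and the narrower window holds fewer matches by construction. The alternatives for the gene count and the left-out difference were added after the data were seen. No paired analysis was possible because no result comes from a test.

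At 14284532 to 15897724 fragments per BRG1 library and a median pileup of 13 or 14, most BRG1-only peaks rest on few fragments. No control library was used in peak calling, and fold enrichments set side by side across lists were not normalised to each other.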
